A study of Drosophila melanogaster with 8 samples.

Results

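The genes described here encode proteins of the mitochondrial ribosome and were taken by symbol: every gene in the deposited count tables whose name begins with mRpL or mRpS followed by a digit, in that letter case. The rule found 72 of 14161 genes, 46 named for the large subunit and 26 for the small subunit. Of these, 71 passed the filter on low counts and were tested, 45 of the large and all 26 of the small subunit. mRpL53, the remaining gene, had 0 counts in all 8 libraries, and 3 counts over the 94354611 counts of the series set its upper limit at 0.0318 CPM (counts scaled to library size). A floor of this kind covers counting error only. In Ensembl the exons of mRpL53 lie wholly inside those of CG33155 on the same strand, which itself had 0 to 6 counts per library. How reads shared by genes were counted was not given in the sources used here.

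Messenger RNA was sequenced from Drosophila melanogaster S2R+ cells, a blood cell-like line, after transfection with Actin:dCas9-VPR, a Cas9 that does not cut DNA fused to transcriptional activators and expressed from an actin promoter, together with guide RNAs. The 4 groups, of 2 libraries each, received control guides (titled Quas), a pool of 5 guides to Twist, a pool of 5 guides to Snail, or both pools. All 4 groups carried the dCas9 activator, and the control guides are given in one label as aimed at a luciferase reporter and in another as without a target. The series calls the libraries of a group biological replicates, and the p-values measure only the spread between them, pooled over the groups.

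Mitochondria carry their own small genome, whose few protein-coding genes specify subunits of the respiratory chain and of ATP synthase. Those proteins are made inside the organelle by the mitochondrial ribosome, whose RNA comes from the mitochondrial genome and whose proteins are all encoded in the nucleus, made in the cytosol and imported. Its large subunit joins amino acids and its small subunit reads the messenger RNA. Some of its proteins have bacterial counterparts, and others occur only in mitochondria.

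Subunits are given here as the symbols name them, although the human counterparts of mRpS30 and mRpS18A have been placed in the large subunit. The rule does not catch 3 genes of the same ribosome: tko, the small-subunit gene whose mutants are sensitive to mechanical shock, bonsai, a small-subunit gene, and Rlc1, whose current symbol is mRpL47. In the annotation (Ensembl, BDGP6.54) the 72 genes were spread over 5 chromosome arms, with 12 on 2L, 12 on 2R, 17 on 3L, 20 on 3R and 11 on X. Their transcripts were short, with a median length of 774 bases over the 71 tested genes against 2010 bases over all genes tested, and 70 of the 71 were under 2000 bases.

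Library totals ran from 10752993 to 13351166 counts. The targets followed the labels: twi, which encodes the mesodermal bHLH factor Twist, had 345 and 384 counts under Twist guides, 164 and 137 under both pools and 0 in the other 4 libraries. Counts of sna, which encodes the zinc-finger factor Snail, were 1079 and 1218 under Snail guides, 1485 and 1320 under both pools and 0 to 2 elsewhere. Of the blood cell markers, srp, Pxn, crq and Pvr were at 73.9 to 490 CPM in every library, and Ppn at 47.6 to 102. Levels of vkg, Cg25C and fz were 2.88 to 10.4 CPM, while Hml, He and eater stayed between 0 and 1.76 CPM. The muscle genes Mhc and Act88F and the glial gene repo were at 0 to 2 counts per library, and the neuronal gene elav was at 7.09 to 8.82 CPM. The control libraries differed with transcript length: over all genes tested, Spearman's correlation of the difference of control replicate 2 from control replicate 1 with length was 0.33. Each comparison with control is also given against either control library alone, as was planned when these genes were chosen.

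The mitochondrial ribosomal protein genes were expressed at moderate levels, from 10.3 to 120 CPM per kb of transcript. Per kilobase of transcript, the median level over all libraries was 46.8 CPM for the large subunit (interquartile range 35.7 to 64.2) and 53.5 CPM for the small subunit (42.1 to 84.5, described over 45 and 26 genes). The median over all genes tested was 21.2 CPM per kb. Nuclear genes for respiratory chain and ATP synthase subunits stood at 136 CPM per kb, and cytosolic ribosomal protein genes at 2130. Genes for mitochondrial tRNA synthetases, which load amino acids onto mitochondrial tRNAs, stood at 15.7, and those for mitochondrial translation factors and mitochondrial DNA expression at 20.8.

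Within the large subunit the highest levels per kb were those of mRpL12 (120 CPM per kb) and mRpL10 (93.1), whose bacterial counterparts form the stalk that receives translation factors, and of mRpL28 (114) and mRpL23 (108), the latter from the rim of the tunnel through which the new protein leaves. mRpL33 (25.3), mRpL13 (18.8), mRpL21 (16.5) and mRpL11 (16.2) were lowest. In the small subunit mRpS30 (97.5), mRpS33 (97.1), mRpS9 (90.4) and mRpS35 (89.4) were highest and mRpS31 (32.9), mRpS18C (29.7), mRpS6 (27.4) and mRpS24 (10.3) lowest. Over the 8 libraries the ranges of mRpL12, mRpL28 and mRpL23 overlapped, as did those of mRpS30, mRpS33, mRpS9 and mRpS35, so the order among these is not fixed by the data.

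Levels were lower on the median in genes that share much exonic sequence with a neighbour. The 10 genes with at least 10% of their exonic bases inside another gene's exons had a median of 33.6 CPM per kb, against 50.3 for the other 62. The 10 include mRpL53, which had 0 counts. The gap was smaller for any shared bases, with 44.6 over 42 genes against 55.5 over the 30 without. mRpS24, the lowest of the small subunit, has 55.3% of its exonic bases under exons of TBC1d7 on the opposite strand. mRpL13 has 35.2% within CG10602 on the same strand. The strand setting and the handling of shared positions in the authors' counting were not given in the sources used here, so the levels of these 10 genes are uncertain, and the part of the overlap in them was not tested.

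**Figure D1:**
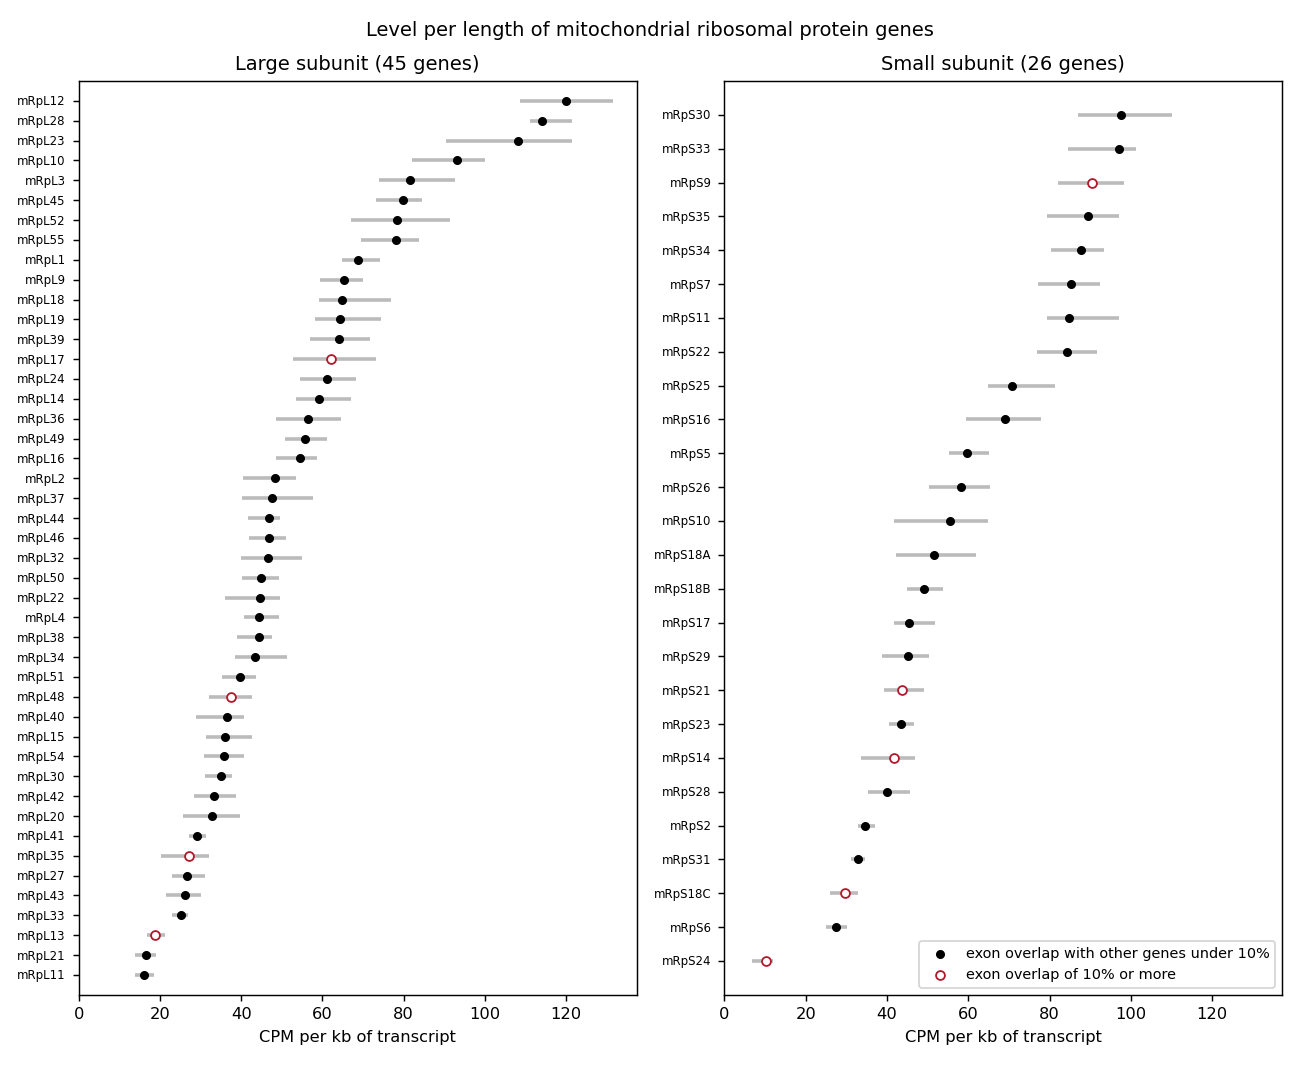
Mean level of each tested mitochondrial ribosomal protein gene in CPM per kb of transcript (points) with the range over 8 libraries (grey lines), for 45 large-subunit and 26 small-subunit genes; open red points have at least 10% of their exonic bases inside exons of another gene. Levels run from 16.2 to 120 CPM per kb in the large subunit and from 10.3 to 97.5 in the small subunit.

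Summed over the 72 genes, the transcripts made up 0.32 to 0.382% of all counts. The summed level was 3555 and 3384 CPM with control guides, 3500 and 3744 under Twist guides, 3610 and 3618 under Snail guides, and 3319 and 3229 under both pools. The libraries under both pools were the lowest pair, below both control libraries, and the second Twist library was highest. Both subunits showed this order at its low end: large-subunit sums were 1970 and 1878 CPM under both pools and 1978 to 2228 in the other 6 libraries, and small-subunit sums were 1349 and 1352 under both pools and 1406 to 1516 elsewhere.

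The same pattern appears gene by gene. Each gene's log2 level was set against its own mean over the 8 libraries, and the median over the 71 genes was 0.036 and -0.052 in the control libraries, 0.015 and 0.105 under Twist guides, 0.058 and 0.065 under Snail guides, and -0.085 and -0.139 under both pools. In the libraries under both pools, 10 and 9 of the 71 genes lay above their own mean, against 41 and 58 under Twist guides and 53 and 55 under Snail guides. The control libraries fell on opposite sides, with 51 of 71 above the mean in control replicate 1 and 20 of 71 in control replicate 2. Over all genes tested the medians stayed between -0.006 and 0.006.

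The nuclear respiratory chain genes had a similar profile over the libraries, and the cytosolic ribosomal protein genes had another. The 63 respiratory chain genes tested had medians of 0.066 and -0.086 in the control libraries, 0.041 and 0.115 under Twist guides, 0.028 and 0.066 under Snail guides, and -0.078 and -0.104 under both pools. The 83 cytosolic ribosomal protein genes were at 0.045 and -0.195, -0.043 and -0.12, 0.034 and 0.125, and 0.087 and 0.086 in the same order. Under both pools, therefore, the cytosolic set lay above its mean where the mitochondrial set lay below.

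**Figure D2:**
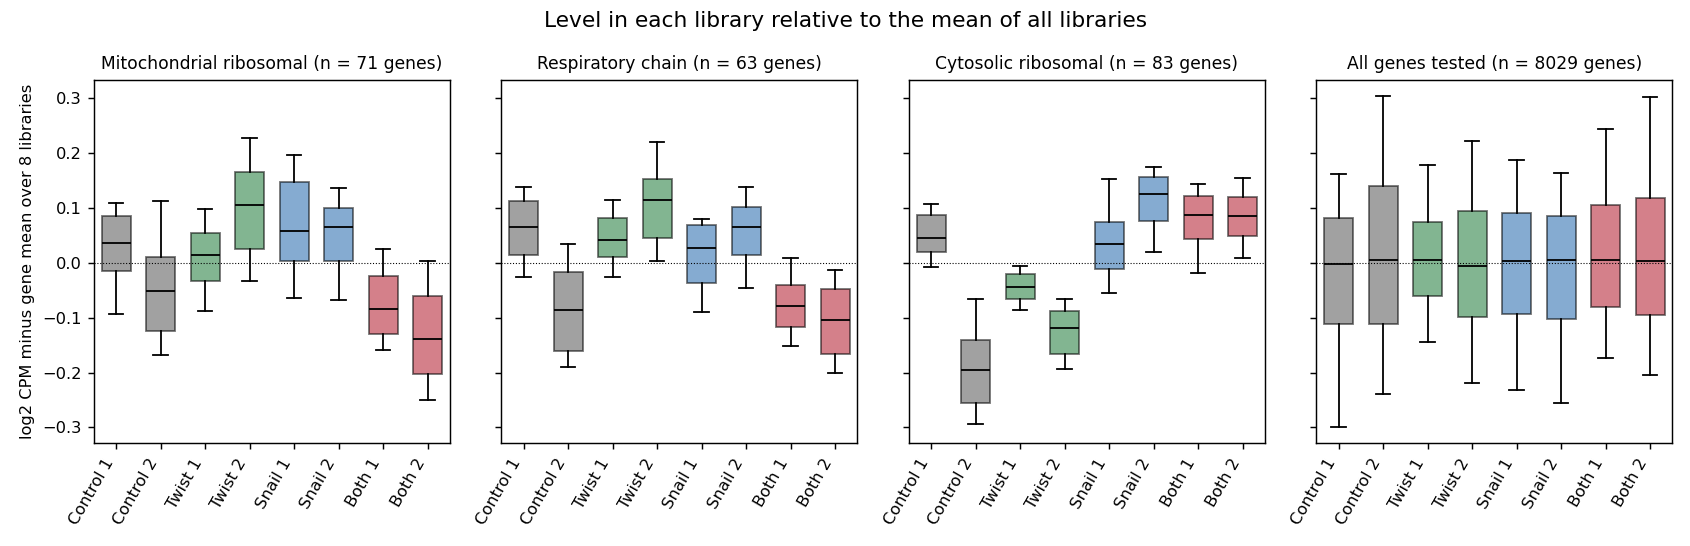
Log2 CPM of each gene minus its mean over 8 libraries, for mitochondrial ribosomal (71), respiratory chain (63), cytosolic ribosomal (83) and all tested (8029) genes; boxes span the quartiles with the median, whiskers run from the 10th to the 90th percentile of genes, and 1 and 2 number the replicates. The mitochondrial ribosomal genes have medians of -0.085 and -0.139 under both pools and -0.052 to 0.105 in the other 6 libraries.

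The 2 control libraries did not give the same level for these genes. Control replicate 2 was lower than control replicate 1 for 53 of 71, with a median log2 difference of -0.086 (SD over genes 0.16), against 0.008 over all genes tested. The difference was -0.15 over the respiratory chain genes and -0.25 over the cytosolic ribosomal protein genes, which are also short. Among the mitochondrial ribosomal protein genes themselves the difference had a Spearman correlation of 0.01 with transcript length, over lengths of 327 to 2078 bases. After a trend with transcript length was removed from each library, the medians became -0.007 and -0.001 in the control libraries, 0.049 and 0.113 under Twist guides, 0.006 and 0.028 under Snail guides, and -0.046 and -0.132 under both pools.

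Single genes differed between the control libraries by more than the typical gene. mRpL37 (chromosome 3R, 10782563 to 10784092), a protein found in mitochondrial ribosomes and not in bacterial ones, was at 54.6 CPM in control replicate 1 and 78.2 CPM in control replicate 2, a log2 difference of 0.52. The other groups lay between these values, at 67.2 and 71.9 CPM under Twist guides, 63.3 and 58.0 under Snail guides, and 64.7 and 57.4 under both pools. mRpS24 (0.28, from 63 and 76 counts) and mRpS6 (0.25) were the next most raised in control replicate 2. mRpL40 (-0.35), mRpL2 (-0.31) and mRpL21 (-0.30) were the most lowered. Any fold change of these 6 genes against control depends on which control library is used.

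Twist guides alone did not bring any of these genes past the test. Against the control group, 0 of 71 were called by edgeR's quasi-likelihood test at an adjusted p under 0.05, where 0.934% of all genes tested were called, and DESeq2 also called 0, where it called 0.897% of all genes. The median log2 change was 0.069, with 58 of 71 above 0, beside -0.01 over all genes tested, and 3 genes had an unadjusted p under 0.05. Here and below, counts at an unadjusted p are given without the share of all genes at that threshold. No excess over all genes can be read from them. In 17 of 71 (23.9%) both Twist libraries lay above both control libraries, against 15.2% of all genes tested.

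The smallest p belonged to mRpL15, a large-subunit protein with a bacterial counterpart. Its level was 32.2 and 36.9 CPM with control guides and 41.1 and 43.9 CPM under Twist guides. The groups did not overlap, and the log2 fold change was 0.30 ± 0.11 (SE; edgeR adjusted p = 0.45). mRpL48 followed with 30.0 and 25.3 CPM in control and 33.8 and 33.1 under Twist guides (0.27 ± 0.11, adjusted p = 0.53), and mRpL40, a protein of mitochondrial ribosomes alone, with 26.3 and 20.6 against 28.5 and 29.1 CPM (0.30 ± 0.13, adjusted p = 0.56).

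The result depended on the control library. Against control replicate 2 alone the median log2 change under Twist guides was 0.113, with 60 of 71 genes above 0, and mRpL40 rose (0.48, adjusted p = 0.046), the single call where 1.28% of all genes were called higher. Against control replicate 1 alone the median was 0.023, with 40 of 71 above 0, and mRpL37 rose (0.35, adjusted p = 0.046), again the single call where 4.4% of all genes were called higher. Against control replicate 2, mRpL37 was at -0.17, the other sign. The lone control library was assumed in these fits to vary like the other groups. The second Twist library also bore on the median, which was 0.014 without it and 0.114 without the first.

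Snail guides alone gave a similar picture. No gene of the 71 was called against the control group by edgeR, where 0.324% of all genes tested were called. By edgeR, 4 had an unadjusted p under 0.05. DESeq2 also called none, where it called 1.03% of all genes tested. It gave no adjusted p for many of the 71 here, mRpL54 among them, so those genes could not be called. The median log2 change was 0.076, with 57 of 71 above 0, beside 0.001 over all genes. In 26 of 71 (36.6%) both Snail libraries lay above both control libraries, against 21.5% of all genes tested.

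mRpS25, a small-subunit protein of mitochondria alone, had the smallest p. It was at 44.2 and 41.6 CPM with control guides and 51.3 and 52.1 CPM under Snail guides, without overlap, and the log2 fold change was 0.27 ± 0.09 (adjusted p = 0.22). The Twist libraries (42.2 and 45.9 CPM) and those under both pools (42.9 and 42.3 CPM) stayed near the control level, so this gene was highest in the Snail libraries. mRpS11, at 57.8 and 59.0 CPM in control and 70.8 and 65.5 under Snail guides (0.22 ± 0.08, adjusted p = 0.27), and mRpL54, at 23.9 and 21.1 against 27.8 and 25.9 CPM (0.26 ± 0.11, adjusted p = 0.32), came next.

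Against control replicate 2 alone, 3 genes rose under Snail guides: mRpS25 (0.32, adjusted p = 0.037), mRpS26 (0.32, adjusted p = 0.027) and mRpS35 (0.26, adjusted p = 0.041). mRpL37 fell (-0.37, adjusted p = 0.012). These counts stand in a comparison that called 6.17% of all genes higher and 11.4% lower, and 3 and 1 of 71 lie below those shares. The median was 0.118 with 59 of 71 above 0. Against control replicate 1 alone, 0 of 71 were called, where 0.805% of all genes were, with 3 at an unadjusted p under 0.05; the median was 0.026, mRpS35 was at -0.03 and mRpL37 at 0.15. With the length trend removed, the medians for Snail guides were 0.040 against both control libraries, 0.018 against control replicate 2 and 0.033 against control replicate 1.

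Under both pools the genes were lower than with control guides on the median, but again none passed. By edgeR 0 of 71 were called, where 1.57% of all genes tested were, and by DESeq2, where 2.06% were, 0 of 71; 6 had an unadjusted p under 0.05, all of them lower. The median log2 change was -0.104, with 56 of 71 below 0, beside -0.006 over all genes tested. It was -0.109 for the large and -0.086 for the small subunit. Both libraries lay below both control libraries in 29 of 71 genes (40.8%), against 22.2% of all genes tested. In bulk RNA, fewer cells of a kind and less RNA per cell cannot be told apart.

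mRpS10, a small-subunit protein with a bacterial counterpart, stood lowest relative to its own mean. It lies on chromosome 3R from 15229665 to 15230516 and shares no exonic bases with another gene. Its level was 42.2 and 46.4 CPM with control guides, 40.0 and 45.0 under Twist guides, 48.4 and 44.0 under Snail guides, and 34.0 and 31.1 under both pools. The libraries under both pools lay below all 6 others, which overlapped one another. Against control the log2 fold change was -0.44 ± 0.10 (adjusted p = 0.057), just outside the threshold.

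The next smallest p-values were those of mRpL43 and mRpL22. mRpL43, a protein of mitochondrial ribosomes alone, was at 21.8 and 22.4 CPM in control and 16.8 and 17.6 under both pools (-0.36 ± 0.12, adjusted p = 0.15). mRpL22, which lines the exit tunnel, was at 45.9 and 46.3 against 40.3 and 35.1 CPM (-0.29 ± 0.10, adjusted p = 0.18). In both genes the groups did not overlap.

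Against either control library the median under both pools stayed below 0, at -0.048 against control replicate 2 (46 of 71 below 0) and -0.146 against control replicate 1 (60 of 71). The value against control replicate 2 was no larger than the pooled SD between replicates of the median level, 0.048. Against control replicate 2 alone, 3 genes fell, mRpS10 (-0.51, adjusted p = 0.0054), mRpS30 (-0.26, adjusted p = 0.032) and mRpL37 (-0.36, adjusted p = 0.020), where 8.28% of all genes were called lower. Against control replicate 1 alone 0 of 71 were called, where 6.68% of all genes were. There mRpS10 was at -0.38 and mRpL37 at 0.16. Once the length trend was removed the medians were -0.085 against the control group, -0.080 against control replicate 2 and -0.084 against control replicate 1. The comparisons of Twist guides, Snail guides and both pools share the control libraries, so their values are given side by side and are not independent of one another.

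**Figure D3:**
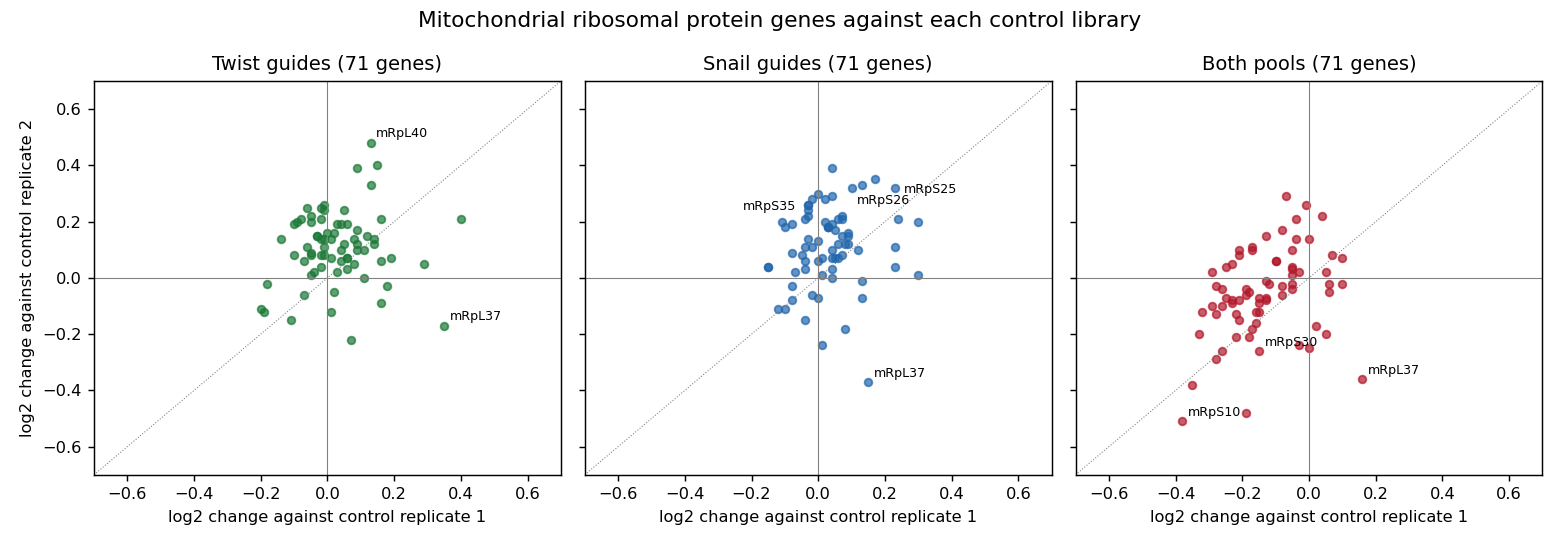
Log2 change of each of the 71 genes against control replicate 1 alone (horizontal) and control replicate 2 alone (vertical) for Twist guides, Snail guides and both pools; the dotted line marks equal changes, and named genes passed an edgeR adjusted p under 0.05 against one of the control libraries. Medians are 0.023 and 0.113 in the Twist panel, 0.026 and 0.118 in the Snail panel, and -0.146 and -0.048 in the last.

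Comparisons among the activated groups do not use the control libraries for their fold changes. Twist and Snail guides differed little from each other: the median log2 difference of Twist from Snail guides was 0.003, with 37 of 71 genes above 0, and 0 were called by edgeR or DESeq2, where 1.08% and 1.12% of all genes tested were called; 2 had an unadjusted p under 0.05. With the length trend removed the median was 0.064. mRpL18 had the smallest p, at 51.5 and 56.9 CPM under Twist guides and 44.0 and 45.1 under Snail guides (0.28 ± 0.10, adjusted p = 0.31). mRpS25 was lower under Twist guides than under Snail guides by the values above (-0.23 ± 0.09, adjusted p = 0.35), and mRpS11 likewise (-0.17 ± 0.08, adjusted p = 0.42).

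Adding the Snail pool to the Twist pool went with lower levels of most of these genes. It also went with less twi, at 13.7 and 12.7 CPM under both pools against 26.3 and 28.2 under Twist guides. This comparison therefore does not hold Twist activation constant. In 49 of 71 (69.0%) both libraries under both pools lay below both Twist libraries, against 29.0% of all genes tested, and in 2 they lay above. The median log2 difference was -0.165, with 63 of 71 below 0, beside 0.008 over all genes tested, and it was -0.189 for the large and -0.127 for the small subunit. No single gene was called by edgeR in the fit of all 8 libraries, where 1.05% of all genes were, or by DESeq2, where 1.97% were. An unadjusted p under 0.05 was found for 23, all 23 lower under both pools. Those percentages are for adjusted p and are no background for the 23. With the length trend removed the median was -0.167.

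mRpS10 had the smallest p here (-0.38 ± 0.10, adjusted p = 0.090). mRpL20 (chromosome 3L, 13017149 to 13017867), a large-subunit protein with a bacterial counterpart, was at 20.1 and 23.9 CPM under Twist guides and 16.7 and 15.5 under both pools, and at 20.2 and 17.5 in control and 23.1 and 21.2 under Snail guides. The libraries under both pools lay below the other 6, and its difference from Twist guides was -0.45 ± 0.13 (adjusted p = 0.10). mRpL15 was at 33.2 and 32.3 CPM under both pools, a difference of -0.37 ± 0.11 from Twist guides (adjusted p = 0.11), and close to its control levels.

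Adding the Twist pool to the Snail pool also went with lower levels of these genes. The level of sna was 124 and 122 CPM under both pools against 97.2 and 102 under Snail guides. Both libraries under both pools lay below both Snail libraries in 52 of 71 genes (73.2%), against 30.4% of all genes tested, and above them in 1. The median log2 difference was -0.145, with 68 of 71 below 0, beside -0.005 over all genes, and was -0.142 for the large and -0.182 for the small subunit. With the length trend removed it was -0.087, with 57 of 71 below 0. The comparisons with Twist and under Snail guides share the libraries under both pools.

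mRpS10 was the one gene of the 71 that fell here, by 0.50 on the log2 scale (SE 0.10; edgeR adjusted p = 0.045, DESeq2 adjusted p = 0.031), where 0.199% of all genes tested were called lower by edgeR and 0.349% by DESeq2. The level under both pools, 32.6 ± 2.02 CPM, stood against 46.2 ± 3.11 CPM under Snail guides (SD, n = 2). The call was lost when any one Twist, Snail or both-pool library was left out (adjusted p from 0.053 to 0.42), and with the length trend removed (adjusted p = 0.069). Another 19 genes had an unadjusted p under 0.05 and were lower, and mRpS9 had one and was higher (0.20 ± 0.07, adjusted p = 0.19). The percentages above are for adjusted p and are no background for these unadjusted counts, from which no excess can be read.

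mRpS26 (chromosome 3L, 18106579 to 18107499), a small-subunit protein of mitochondria alone, was at 54.0 and 53.4 CPM under Snail guides and 41.5 and 42.1 under both pools. Control (50.1 and 43.0 CPM) and Twist (49.5 and 49.7 CPM) libraries lay between, and the difference of both pools from Snail guides was -0.36 ± 0.09 (adjusted p = 0.085). mRpL20 differed by -0.46 ± 0.13 (adjusted p = 0.10) and mRpL43 by -0.38 ± 0.12 (adjusted p = 0.12).

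The control libraries entered these tests through the pooled spread. When the 3 activated groups were fitted without the control group, a setting chosen after the data had been seen, 13 genes fell under both pools relative to Twist guides and 9 relative to Snail guides, where 6.25% and 4.4% of all genes were called lower. The 13 included mRpS10 (-0.38, adjusted p = 0.013), mRpS30 (-0.26, adjusted p = 0.015), mRpL15 (-0.37, adjusted p = 0.016) and mRpL20 (-0.45, adjusted p = 0.020), and the 9 included mRpS10 (-0.50, adjusted p = 0.0012), mRpS26 (-0.36, adjusted p = 0.0043), mRpL20 (-0.46, adjusted p = 0.015) and mRpS29 (-0.28, adjusted p = 0.022). mRpS29, whose human counterpart DAP3 is a GTP-binding protein named for a part in cell death, was at 66.1 and 65.7 CPM in control, 65.4 and 72.5 under Twist guides, 68.1 and 70.1 under Snail guides, and 58.2 and 55.7 under both pools.

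**Figure D4:**
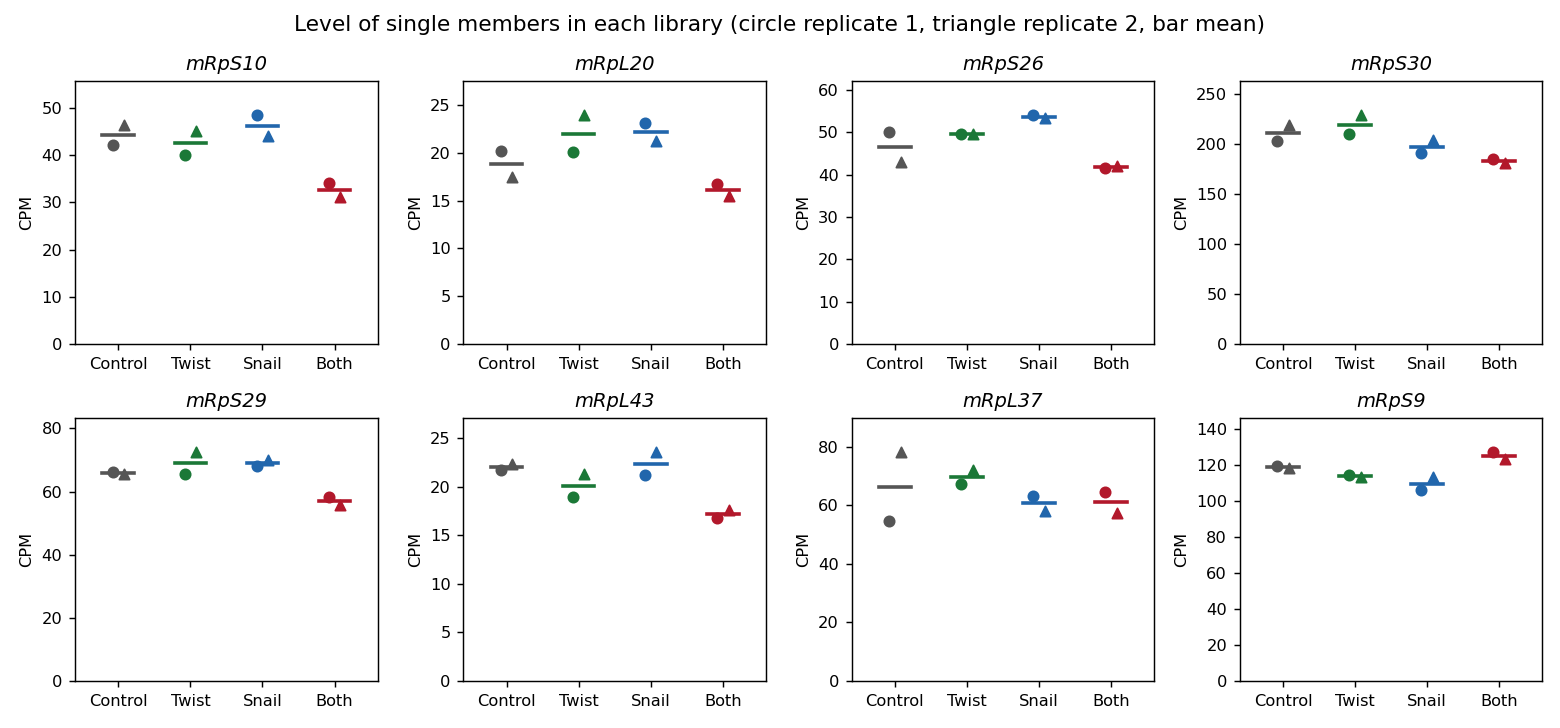
Level in CPM of 8 genes in each library by guide group (circle, replicate 1; triangle, replicate 2; bar, mean of the group). In mRpS10 the libraries under both pools, at 34.0 and 31.1 CPM, lie below the other 6, in mRpL37 the control libraries at 54.6 and 78.2 CPM enclose all others, and in mRpS9 the libraries under both pools, at 127 and 123 CPM, are highest.

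Taken over all libraries, 26 of the 71 genes (36.6%) had their 2 lowest values in the libraries under both pools, against 11.0% of all genes tested. They came from both subunits, 15 large and 11 small. Besides the genes above, they included mRpL3, which lies near the peptidyl transferase centre, at 92.1 and 91.8 CPM under both pools and at least 99.7 CPM in each other library, and mRpS30, at 185 and 181 CPM against 191 to 229. Of the genes for respiratory chain subunits 22 of 63 (34.9%) and of those for cytosolic ribosomal proteins 1 of 83 (1.2%) had their 2 lowest values there.

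mRpS9 (chromosome 3R, 7889277 to 7902667), a small-subunit protein with a bacterial counterpart, was the one gene whose 2 highest values were in the libraries under both pools. It was at 119 and 118 CPM in control, 114 and 113 under Twist guides, 106 and 113 under Snail guides, and 127 and 123 under both pools. Of its exonic bases 25.1% lie under exons of ArgRS-m on the opposite strand, a mitochondrial tRNA synthetase gene at 10.3 to 14.2 CPM. The difference between both pools and any other group did not pass the test for mRpS9.

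**Figure D5:**
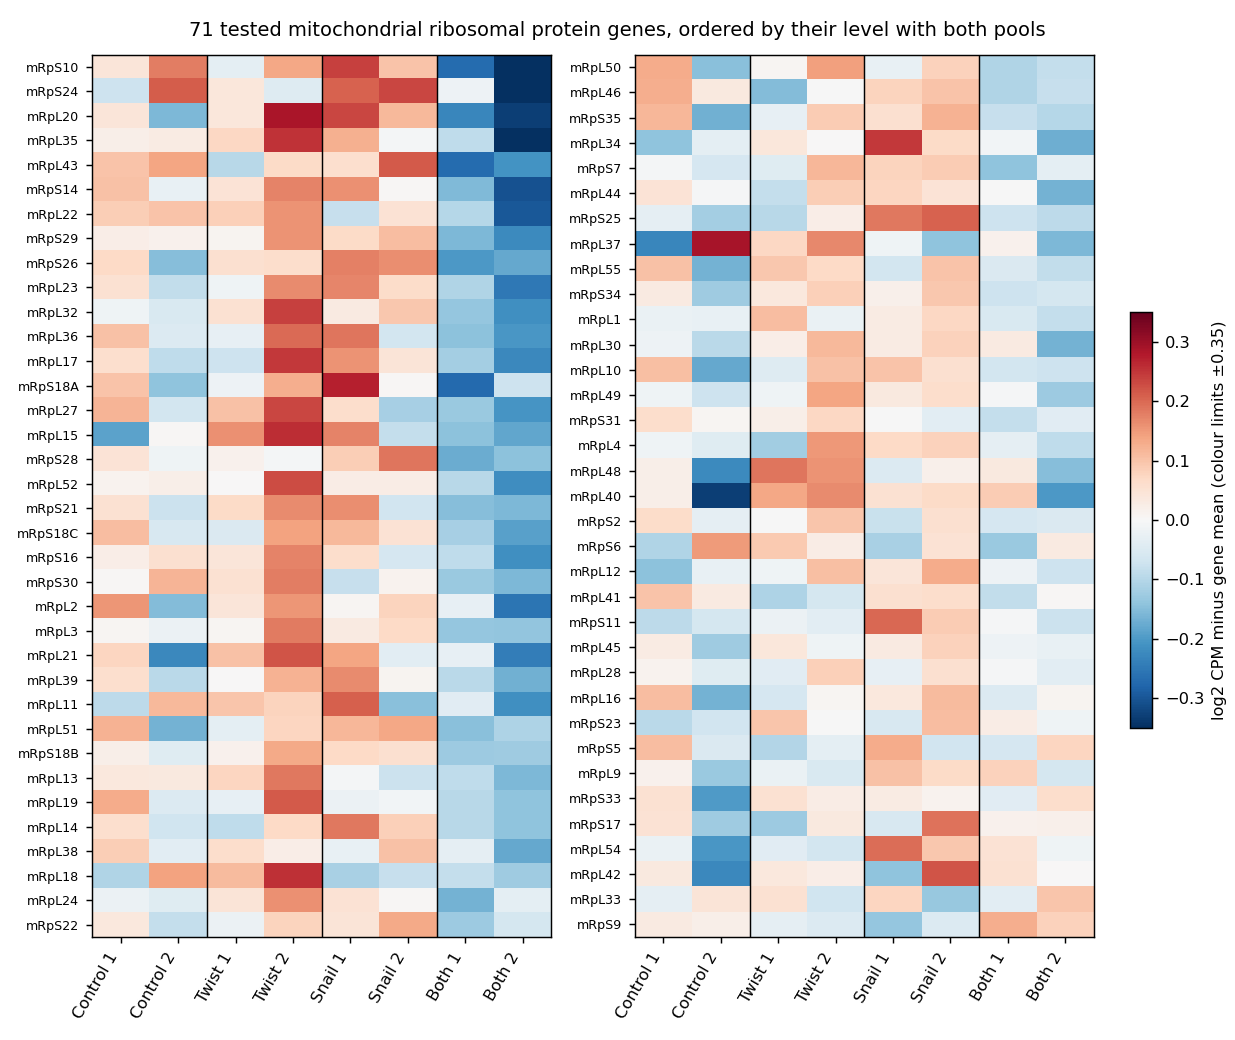
Log2 CPM minus the gene's mean over 8 libraries (colour, limited to 0.35 on either side of 0) for the 71 tested genes, ordered by their level under both pools from lowest, top left, to highest, bottom right; 1 and 2 number the replicates. mRpS10 stands first and mRpS9 last, and the control columns differ most for mRpL37 and mRpL40.

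The question whether both pools together differed from the sum of their separate effects was addressed by the interaction of the Twist and Snail effects. As given above, twi was lower under both pools than under Twist guides alone, and sna was higher than under Snail guides alone. The sum thus does not hold the level of the targets constant, and the part of this in the departures was not tested. For 67 of 71 genes the level under both pools was below what the separate changes would add up to, with a median log2 departure of -0.235 beside 0.005 over all genes tested. None passed by edgeR, where 0.174% of all genes tested were called, or by DESeq2, where 0.797% were; 19 had an unadjusted p under 0.05, 18 of them negative. The smallest p-values were those of mRpL20 (-0.68 ± 0.18, adjusted p = 0.13), mRpS26 (-0.45 ± 0.13, adjusted p = 0.16) and mRpL15 (-0.51 ± 0.16, adjusted p = 0.18). The median was -0.282 with control replicate 2 alone, where 7 genes were called lower beside 3.3% of all genes, and -0.194 with control replicate 1 alone, where 2 were called lower beside 2.6%. With the length trend removed it was -0.194.

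Other genes of mitochondrial gene expression had medians near 0. The tRNA synthetase genes are longer, with a median of 2552 bases against 774 for the mitochondrial ribosomal protein genes. The part of transcript length in the difference between these lists was not tested. The 15 genes for mitochondrial tRNA synthetases had median log2 changes against control of -0.002, 0.020 and 0.019 for the Twist pool, the Snail pool and both together, and of -0.011 and 0.019 for both pools against Twist and against Snail guides. The 22 genes tested for mitochondrial translation factors and mitochondrial DNA expression had 0.004, 0.018, -0.021, -0.006 and -0.040 in the same order. None of either list was called in these comparisons. Among them EfTuM, the mitochondrial elongation factor that brings tRNAs to the ribosome, was at 460 and 357 CPM in control and at 439 to 493 CPM in the other 6 libraries, and mtSSB, which coats single-stranded mitochondrial DNA, was at 118 and 116 CPM in control and 108 and 101 under both pools (-0.16 ± 0.07, adjusted p = 0.30).

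The respiratory chain genes, whose products work beside those of the mitochondrial ribosome, had medians of 0.089, 0.058 and -0.094 against control and of -0.174 and -0.135 for both pools against Twist and Snail guides. Under both pools 49 of 63 were below 0 against control and 58 of 63 against Twist guides. The one gene called there, where 1.05% of all genes tested were, was CG1746 (-0.42 ± 0.09, adjusted p = 0.050). CG1746, the gene for subunit c of ATP synthase (current symbol ATPsynC), was at 1230 and 1350 CPM in control, 1330 and 1480 under Twist guides, 1190 and 1100 under Snail guides and 1090 and 1000 under both pools (-0.30 ± 0.09 for both pools against control, adjusted p = 0.13). Cytosolic ribosomal protein genes had medians of 0.151 for both pools against control, 0.167 against Twist guides and 0.003 against Snail guides, so against Snail guides the mitochondrial set was lower while the cytosolic median stayed at 0.003. The differences between these lists were not tested.

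The 3 mitochondrial ribosomal genes outside the symbol rule gave values of the same size. tko was at 42.4 and 36.2 CPM in control, 35.8 and 43.4 under Twist guides, 35.2 and 40.2 under Snail guides, and 31.7 and 33.3 under both pools (-0.27 ± 0.12 against control, adjusted p = 0.28). Rlc1 was at 48.6 and 46.1, 47.8 and 55.4, 55.9 and 51.1, and 44.3 and 44.0 CPM in the same order. In both genes the libraries under both pools were the lowest pair. bonsai was at 61.3 and 70.4, 67.1 and 74.0, 59.8 and 57.8, and 59.5 and 58.0 CPM, so its Snail libraries were as low as those under both pools.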

How the data were processed

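The authors deposited 1 table of raw read counts per gene symbol for each of 8 libraries; per the submitters' processing notes TopHat2 (version 2), Bowtie2, HTSeq and DESeq were used, in roles not given there. The genome build, the annotation, the strand setting and the way HTSeq assigned shared reads were not given in the sources used here. Per the labels' protocols, TRIZOL-extracted RNA was column-purified, treated with DNase and made into Illumina mRNA libraries.

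Tests used edgeR 4.0.16 (R 4.3.3, limma 3.58.1). Genes were kept by filterByExpr at a minimum count of 10, which left 8029 and removed 6132 while keeping at least 99.94% of counts. Normalisation was by TMM (0.983 to 1.02). The 4 groups were fitted together by robust quasi-likelihood with 4 residual degrees of freedom, and p-values of the 7 contrasts were adjusted over all genes tested (Benjamini-Hochberg, 0.05). Adjusted p-values come from it unless DESeq2 1.42.0 or another setting is named. CPM are TMM-normalised; SE are on the log2 scale. A fit without control replicate 1 gives the comparison with control replicate 2 alone, and the reverse. Log2 levels used a prior count of 2. The length trend was a lowess curve per library (span 0.3) on transcript length, known for 7808 genes (97.2%) including all 71 members. Coordinates and lengths are from Ensembl 115 (BDGP6.54), matched by symbol: 10669 current, 2955 older, 280 ambiguous and 257 unmatched; all 72 members were current.

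The members and the lists were chosen with earlier results of these data known. Named genes were the 3 with the smallest p in each comparison, those past the test, those past it against 1 control library, the 4 most and 4 least abundant per subunit, the 3 most different each way between control libraries, and 3 outside the symbol rule; other members were named after their values were seen. Promoter and protein sequences were not used here. Figures used matplotlib 3.10.9 (Python 3.11.15).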

Additional observations from a re-analysis of the deposited data

How the results depend on the processing

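DESeq2 size factors, library size alone, a filter of 1 CPM in 2 libraries and the DESeq2 test left each count of genes past the threshold within 1.5 times, and each median within 0.048 (the pooled SD between replicates), of the main value. With no filter on low counts, 1 gene was called with both pools against control (2.95% of all genes were called), 3 against Twist guides (3.51%), 3 against Snail guides (3.65%) and 1 for the interaction (1.98%); the bracketed percentages here are shares of all genes called in either direction under the same setting. With only the groups compared in the fit, 1, 8 and 15 genes were called for Twist against Snail guides, both pools against Twist and both pools against Snail guides (8.93%, 8.93% and 19.6%), and without the control group 1, 13 and 9 (10.5%, 12.1% and 13.9%). With the transcript length trend removed, the count for both pools against Snail guides was 0 (1.28%), the medians were 0.064 for Twist against Snail guides and -0.087 for both pools against Snail guides, and the median levels of control replicate 2 and Snail replicate 1 became -0.001 and 0.006. With the trend removed and control replicate 1 left out, both settings chosen together after seeing the data, 2 genes were called for Snail guides (15.3%, median 0.018), 4 for both pools (13.5%), 1 for Twist against Snail guides (8.2%, median 0.063), 14 for both pools against Twist (12.7%), 4 against Snail guides (11.3%, median -0.088) and 4 for the interaction (10.1%). With the trend removed and control replicate 2 left out, the counts were 3 for Twist guides (4.95%), and 1 (8.17%, median 0.065), 14 (12.6%), 4 (11.3%, median -0.087) and 2 (5.0%) in the last 4 of these. The cause of these changes was not tested.

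Leaving out each library in turn gave 0 to 1 genes for Twist guides (median 0.014 to 0.114), 0 to 4 for Snail guides (0.026 to 0.118), 0 to 3 for both pools (-0.146 to -0.048), 0 to 1 for Twist against Snail guides (-0.043 to 0.045), 0 to 15 for both pools against Twist (-0.205 to -0.131), 0 to 9 against Snail guides (-0.182 to -0.12) and 0 to 7 for the interaction. The counts above 0 all arose without a control library. Without control replicate 1 the 7 highest counts, in this order, stood beside 4.05%, 17.5%, 13.9%, 10.4%, 11.8%, 13.8% and 11.5% of all genes. Without control replicate 2, counts of 1, 1, 15, 9 and 2 for Twist guides and the last 4 comparisons stood beside 6.17%, 10.4%, 11.9%, 13.8% and 4.84%. mRpL37 changed sign with the control library: without control replicate 1 or 2 it was -0.17 or 0.35 for Twist guides, -0.37 or 0.15 for Snail guides and -0.36 or 0.16 for both pools, and mRpS35 was 0.26 or -0.03 for Snail guides. With the trend removed the values of the other sign were -0.18, 0.15, 0.21 and -0.02. Of 460 values of named genes with a library left out, 380 kept direction and side of the threshold, 66 passed it anew, 6 lost it and 8 changed sign. In the other settings these were 348, 30, 2 and 0 of 380.

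Same-numbered replicates showed no strong shared deviation (correlations from -0.148 to 0.142), and the main fit does not pair them. These correlations cannot show whether same-numbered samples were handled together. With the replicate number as a block, 0 genes were called for both pools against Snail guides (0.685% of all genes; mRpS10 adjusted p = 0.061), and the other counts were unchanged.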
